A study of Mus musculus with 6 samples.

Results

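A set of 10 genes of the p53 pathway, the CDK inhibitors and cell senescence was followed across the study: Trp53, Mdm2, Cdkn1a, Cdkn1b, Cdkn2a, Cdkn2b, Cdkn2c, Lmnb1, Gdf15 and Glb1. They were taken by gene symbol from the deposited gene table, where they are 10 of 22173 listed genes, and all 10 were measured and tested. RNA-seq was done on primary articular chondrocytes, the cells of joint cartilage, from wild-type mice. The 6 libraries formed 3 groups of 2, named control, aging SNL, and the group in which aging SNL was combined with spesolimab, an antibody against the IL-36 receptor. The labels expand neither SNL nor CCs, and give no age, sex, antibody dose, treatment time or number of animals. They do not say whether the libraries of a group came from separate cultures or animals, so a p-value here reflects the scatter of these 6 libraries alone, and that scatter may be technical.

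The transcription factor p53, the product of Trp53, is held at a low level by the ubiquitin ligase Mdm2, and both Mdm2 and Cdkn1a are among its target genes. Cdkn1a encodes p21 and Cdkn1b encodes p27, which bind and inhibit cyclin-dependent kinase complexes. Cdkn2a, Cdkn2b and Cdkn2c encode Ink4 inhibitors, which block CDK4 and CDK6 and so keep the retinoblastoma protein active and E2F target genes silent. A second reading frame of Cdkn2a encodes Arf, which inhibits Mdm2. Lamin B1, the product of Lmnb1, is a component of the nuclear lamina that is commonly lost from senescent cells. Glb1 encodes the lysosomal beta-galactosidase read in senescence staining, and Gdf15 encodes a secreted stress cytokine induced by p53 and by the integrated stress response. In articular cartilage, cells with these features accumulate with age and in osteoarthritis.

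The upstream sequences of Trp53, Mdm2 and Cdkn1a are shown because their values below are those of a regulator and its targets. They are the 250 bases before a transcription start, from RefSeq, mouse build GRCm38.p6, written 5′ to 3′ in the direction of transcription. The authors' table was made on another build, GRCm39, so these positions belong to the RefSeq annotation only. Capitals mark matches to the p53 half-site, a degenerate motif that reads alike on both strands. Cdkn1a lies on chromosome 17, plus strand, with the window at chr17:29090729-29090978 and matches starting 73 and 51 bases before the start. Mdm2 lies on chromosome 10, minus strand, at chr10:117710759-117711008, with a match at 186 bases before the start. Trp53 lies on chromosome 11, plus strand, at chr11:69580109-69580358, with a match at 75 bases before the start.
Cdkn1a: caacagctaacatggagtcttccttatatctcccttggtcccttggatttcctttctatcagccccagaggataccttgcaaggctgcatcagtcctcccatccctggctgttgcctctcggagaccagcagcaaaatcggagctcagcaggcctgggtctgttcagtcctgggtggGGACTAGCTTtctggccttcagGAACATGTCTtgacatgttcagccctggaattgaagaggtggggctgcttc
Mdm2: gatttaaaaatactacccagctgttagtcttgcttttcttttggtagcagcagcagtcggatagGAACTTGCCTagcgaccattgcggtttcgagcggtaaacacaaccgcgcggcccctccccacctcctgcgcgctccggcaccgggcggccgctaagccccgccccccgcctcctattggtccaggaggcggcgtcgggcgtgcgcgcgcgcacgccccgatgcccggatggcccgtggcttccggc
Trp53: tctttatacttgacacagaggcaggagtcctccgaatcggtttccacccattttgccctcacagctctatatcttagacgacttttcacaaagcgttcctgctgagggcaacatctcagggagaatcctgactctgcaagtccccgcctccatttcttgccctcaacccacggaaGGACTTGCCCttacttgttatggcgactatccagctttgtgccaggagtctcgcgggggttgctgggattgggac
Of 32851 mouse promoter windows of this length, 7.13% held a p53 half-site. Of the 10 genes 9 had an entry in the table, in 13 windows, and no other window of theirs held the motif. The downstream Cdkn1a start, at chr17:29093519-29093768, was one of those without it. The E2F motif, searched on both strands as TTTCCCGC, TTTCGCGC, TTTGCCGC and TTTGGCGC, was in 1 window of Cdkn2a and in 1.86% of all windows. The E-box CACGTG was in 1 window of Gdf15 and in that of Glb1, against 6.02% of all windows. A match describes the letters alone, not binding.

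The libraries held 16566791 to 17312833 counts. Aging SNL replicate 1 stood apart, at 67.94 on the first principal component against -18.78 to -6.457 for the other 5 libraries. Between the aging SNL replicates 14.7% of tested genes were over 2-fold apart, against 2.75% between controls and 3.13% between the spesolimab libraries. All 13 chondrocyte markers were detected in every library, with a summed level of 70270 to 87010 CPM (counts scaled by TMM-adjusted library size) in 5 libraries and 15180 CPM in aging SNL replicate 1. The 10 macrophage markers summed to 113.6, 148 and 155.6 CPM in the replicate 1 libraries and to 25.96, 41.2 and 38.31 CPM in the replicate 2 libraries of control, aging SNL and spesolimab, with 1 marker at 0 in control replicate 2. Markers of endothelial cells summed to 0.785 to 3.095 CPM, of keratinocytes to 16.45 to 23.66 CPM, of osteoclasts to 112.9 to 185.3 CPM, and of fibroblasts and synovial lining to 947.2 to 1637 CPM. Of the 5 osteoclast markers 1 to 3 were at 0 in each library. Keratinocyte markers had 0 to 2 of 5 at 0, and endothelial markers 0 or 1 of 5. In the endothelial, keratinocyte and osteoclast panels only 2 markers each were tested. Markers of osteoblasts summed to 304.8 and 201 CPM in the controls, 85.16 and 83.61 CPM in the aging SNL libraries, and 343.1 and 119.3 CPM in those given spesolimab, with 3 of 3 tested below 0 in aging SNL and 1 at 0 in its replicate 2. The part of these markers and of the library that stands apart in the values below was not tested.

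In the fit of 6 libraries edgeR called 0 of the 10 genes at an adjusted p under 0.05 in any of the 3 comparisons, as it called 0% of all 13399 genes tested. DESeq2 called 445, 3 and 160 genes and, of the members, Lmnb1 in both comparisons against control. Lmnb1 was lower than in either control in all 4 libraries of the aging SNL condition, that is the 2 without and the 2 with spesolimab. Trp53, Cdkn2a and Cdkn2c lay below both controls in the same 4 libraries by smaller amounts. Cdkn1a and Mdm2 were above both controls in both aging SNL libraries, and Cdkn1a mainly in replicate 1.

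Trp53 stood at 55.4 and 62.1 CPM in the controls, 36.2 and 51 CPM in the aging SNL libraries, and 49.9 and 47.4 CPM in those given spesolimab. All 4 aging SNL and spesolimab libraries were below both controls, and aging SNL replicate 1 was the lowest. Its log2 fold change against control was -0.43 ± 0.18 (SE, 95% interval -0.88 to 0.02, edgeR adjusted p = 0.406) in aging SNL. This fold change was -0.70 ± 0.11 when aging SNL replicate 2 was left out and -0.20 ± 0.10 without replicate 1. Each of those fits keeps a single aging SNL library. With spesolimab, Trp53 stood -0.27 ± 0.18 from control and 0.16 ± 0.18 from aging SNL. The latter sign rested on aging SNL replicate 1, without which it was -0.07.

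Mdm2, the ligase that degrades p53, stood at 69.8 and 77.6 CPM in the controls, 101 and 88.2 CPM in the aging SNL libraries, and 76.6 and 79.6 CPM in those given spesolimab. Both aging SNL libraries were above all 4 others. The log2 difference from control was 0.36 ± 0.11 (95% interval 0.08 to 0.64, edgeR adjusted p = 0.319), and that of the spesolimab group from aging SNL was -0.28 ± 0.11 (adjusted p = 0.956). Without aging SNL replicate 2 they were 0.46 ± 0.10 and -0.37 ± 0.10. Without replicate 1 they were 0.26 ± 0.10 and -0.18 ± 0.10. The TPM values are scaled by transcript length and were used without TMM scaling. In TPM Mdm2 was 50.4 and 56.4 in control and 55.3 and 60.2 in aging SNL, so that the groups overlapped there. The effective length of Mdm2 varied over libraries only from 2959 to 3000 bases. The TPM of all genes had shifted by a median of -0.225 on the log2 scale between these groups.

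Cdkn1a, the p21 gene, stood at 98.5 and 136 CPM in the controls, 341 and 166 CPM in the aging SNL libraries, and 118 and 151 CPM in those given spesolimab. Both aging SNL libraries exceeded every other library, but differed 2.05-fold from each other, against 1.38-fold between controls. The log2 fold change in aging SNL was 1.11 ± 0.37 (95% interval 0.17 to 2.06, edgeR adjusted p = 0.349). It was 1.54 ± 0.21 without aging SNL replicate 2 and 0.51 ± 0.21 without replicate 1. Spesolimab libraries stood -0.92 ± 0.37 from aging SNL (95% interval -1.85 to 0.02, edgeR adjusted p = 0.956), -1.34 ± 0.21 without replicate 2 and -0.31 ± 0.21 without replicate 1. They stood 0.20 ± 0.37 from control. Both comparisons with aging SNL changed in size with the aging SNL library that was left out.

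**Figure D1:**
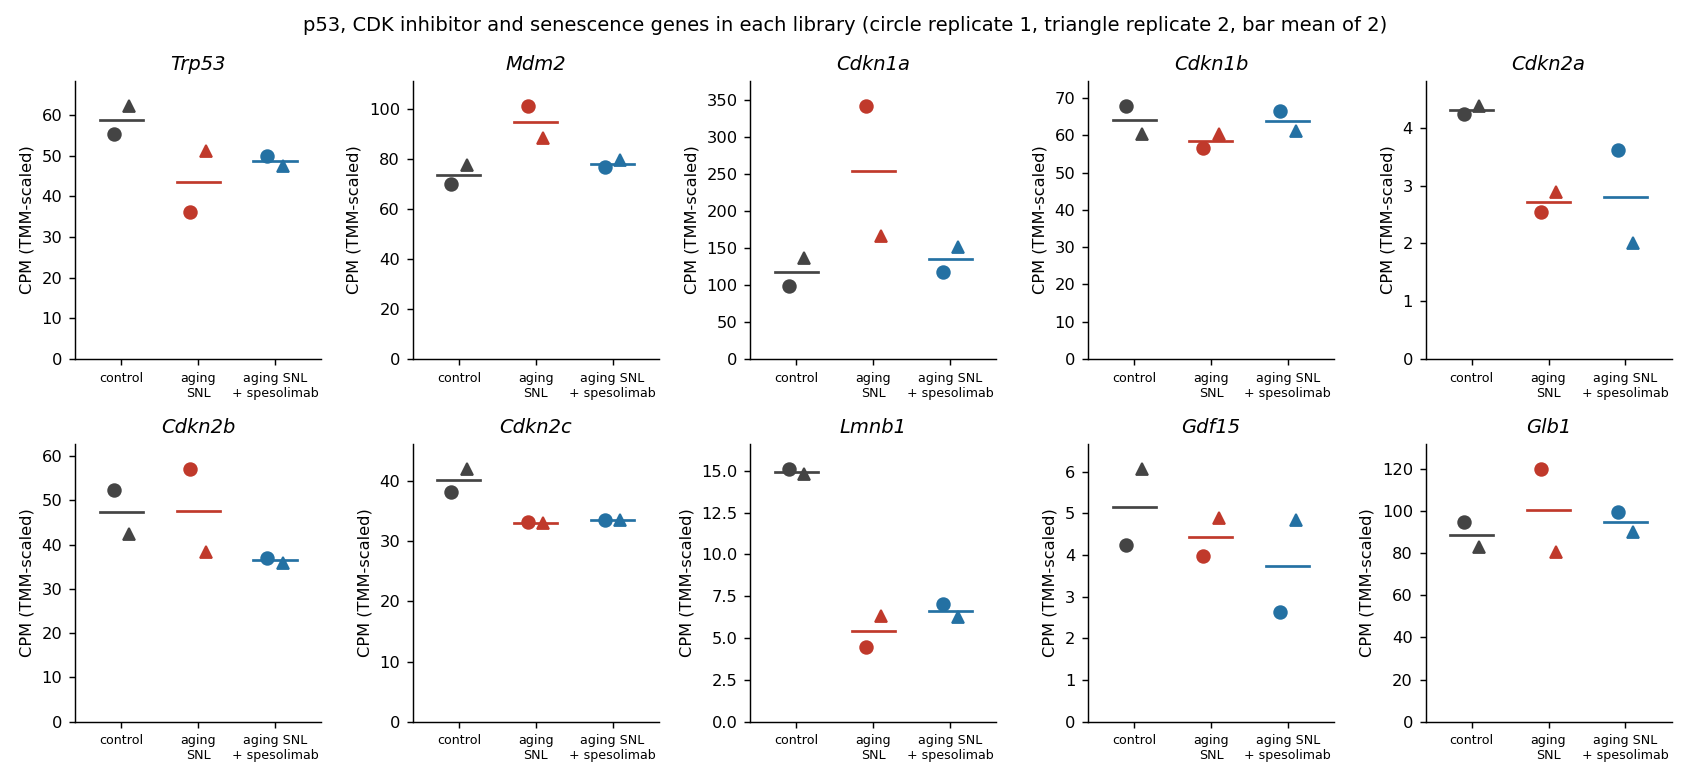
Level of each of the 10 genes in CPM (linear axes from 0, with TMM scaling) for the 3 groups; points are libraries (circle replicate 1, triangle replicate 2) and bars the mean of 2. Lmnb1 is at 14.8 and 15.1 CPM in the controls and at 4.47 to 7.01 CPM in the other 4 libraries.

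The other Cip/Kip inhibitor, Cdkn1b, which encodes p27, was the steadiest of the 10 genes, with 67.8 and 60.4 CPM in the controls, 56.6 and 60.4 CPM in the aging SNL libraries, and 66.6 and 61.2 CPM with spesolimab. Its control and aging SNL libraries were apart only beneath the third digit, and both spesolimab libraries were above both aging SNL libraries. In aging SNL its log2 fold change was -0.13 ± 0.10 and its root mean square deviation about its own mean over the 6 libraries was 0.089 on the log2 scale, against 0.652 for Lmnb1.

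Of the Ink4 genes, Cdkn2a and Cdkn2c were lower in the aging SNL and spesolimab libraries than in control without passing the test in 6 libraries, and Cdkn2b was below both controls only with spesolimab. The Cdkn2a row is for the gene as a whole, and so joins the transcripts of the p16 and Arf proteins. Cdkn2a stood at 4.23 and 4.37 CPM in the controls, 2.55 and 2.89 CPM in the aging SNL libraries, and 3.62 and 2.00 CPM in those given spesolimab. Every library of the aging SNL condition was below both controls. These rest on 34 to 78 counts a library, where counting error alone is up to 17.1% (1 SD). The log2 fold change was -0.66 ± 0.34 in aging SNL (95% interval -1.51 to 0.19, edgeR adjusted p = 0.467), and -0.61 ± 0.34 with spesolimab against control. The latter was -1.10 ± 0.34 without spesolimab replicate 1 and -0.25 ± 0.31 without spesolimab replicate 2.

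Cdkn2c, the p18 inhibitor, stood at 38.2 and 42 CPM in the controls, 33.2 and 33 CPM in the aging SNL libraries, and 33.5 and 33.5 CPM in those given spesolimab. The aging SNL libraries lay at 0.829 and 0.822 of the control mean, and those given spesolimab at 0.835 and 0.835. The difference between them and the controls was -0.28 ± 0.09 on the log2 scale in aging SNL (95% interval -0.51 to -0.05, edgeR adjusted p = 0.347) and -0.26 ± 0.09 with spesolimab (adjusted p = 0.744). Spesolimab and aging SNL stood 0.02 ± 0.09 apart (95% interval -0.21 to 0.25).

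Cdkn2b, the p15 gene, stood at 52.4 and 42.4 CPM in the controls, 57.1 and 38.3 CPM in the aging SNL libraries, and 37.1 and 35.8 CPM in those given spesolimab. The aging SNL libraries fell on either side of control, 1.49-fold apart. In aging SNL its log2 fold change was 0.01 ± 0.21, and this took the other sign on the TPM scale, at -0.25. With spesolimab against aging SNL it was -0.39 ± 0.21 (edgeR adjusted p = 0.956). This fold change was -0.64 ± 0.13 when aging SNL replicate 2 was left out. Without replicate 1 it was -0.07 ± 0.14, so that its size rested on aging SNL replicate 1.

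**Figure D2:**
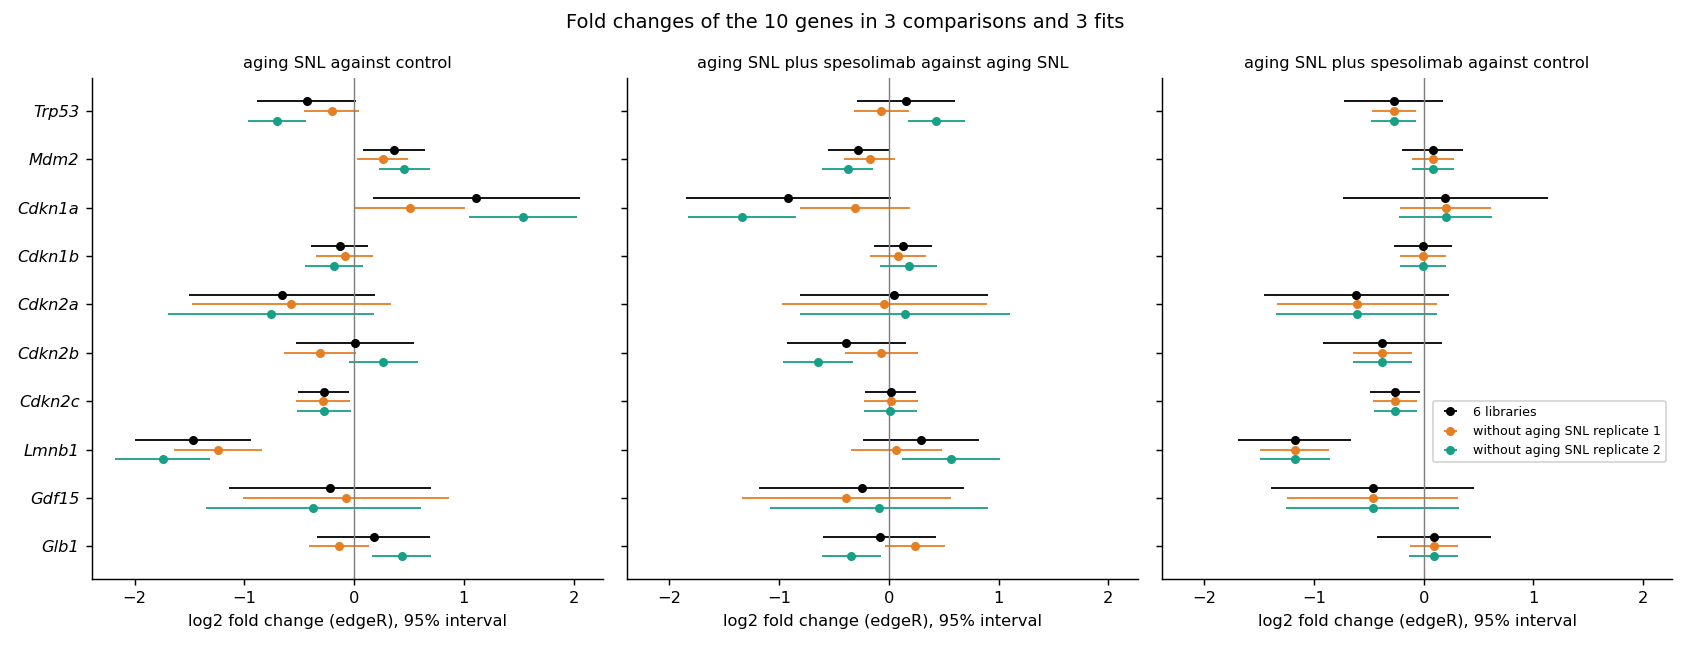
Log2 fold change of each gene (dots) with 95% intervals (lines) from edgeR, for the 3 comparisons, in the fit of 6 libraries (black), without aging SNL replicate 1 (orange) and without replicate 2 (green). Lmnb1 is -1.47, -1.24 and -1.75 in the first panel, and Cdkn1a is 1.11, 0.51 and 1.54.

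Lmnb1, which encodes lamin B1, was the lowest relative to control of the 10. The counts were 265 and 264 in the controls, 72 and 105 in the aging SNL libraries, and 120 and 106 in those given spesolimab. In CPM these were 15.1 and 14.8, then 4.47 and 6.33, and then 7.01 and 6.24. The controls differed 1.02-fold, and the 4 other libraries stood at 0.299, 0.422, 0.468 and 0.417 of their mean. In TPM the controls were both at 12.4, the aging SNL libraries at 2.81 and 4.96, and the spesolimab libraries at 5.43 and 4.90.

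The log2 fold change of Lmnb1 was -1.47 ± 0.21 in aging SNL against control (95% interval -1.996 to -0.94, edgeR adjusted p = 0.155). It passed the test without aging SNL replicate 1, as the only member called, at -1.24 ± 0.17 (adjusted p = 0.0196), where 3.43% of all genes were called. It also passed without replicate 2, at -1.75 ± 0.18 (adjusted p = 0.00131), where 25.7% of all genes and 5 of the 10 members were called. The other 4 members called there were Trp53, Mdm2, Cdkn1a and Glb1. Each of those fits has a single aging SNL library, which is assumed to vary like the libraries of the other groups.

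With spesolimab Lmnb1 was also lower than in control, -1.18 ± 0.21 on the log2 scale (95% interval -1.69 to -0.66, edgeR adjusted p = 0.306). It fell by 1.18 ± 0.13 without aging SNL replicate 1 (adjusted p = 0.0117), where 2.82% of all genes were called, and passed without replicate 2 too (adjusted p = 0.013), where 2.8% were. Between spesolimab and aging SNL it differed by 0.29 ± 0.21 (95% interval -0.24 to 0.82) in the 6 libraries, by 0.07 ± 0.17 without replicate 1 and by 0.57 ± 0.19 without replicate 2 (edgeR adjusted p = 0.0772), none of which passed the test. In that comparison 0% of genes were called without replicate 1, and 20.5% without replicate 2, with 4 members, Trp53, Mdm2, Cdkn1a and Cdkn2b.

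Gdf15 stood at 4.23 and 6.06 CPM in the controls, 3.98 and 4.88 CPM in the aging SNL libraries, and 2.63 and 4.83 CPM in those given spesolimab. Its libraries overlapped between all groups, and the spesolimab libraries differed 1.84-fold. The log2 fold changes, at -0.22 ± 0.37 in aging SNL and -0.25 ± 0.37 with spesolimab against aging SNL, were smaller than their errors. With spesolimab against control it was -0.46 ± 0.37, and -0.97 to -0.09 with 1 library left out. Gdf15 was among the least abundant of the 10, at 7.46 TPM on average over 6 libraries.

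Glb1, the lysosomal beta-galactosidase, stood at 94.6 and 83.2 CPM in the controls, 120 and 80.6 CPM in the aging SNL libraries, and 99.5 and 90.2 CPM in those given spesolimab. Aging SNL replicate 1 was the highest of the 6 libraries and replicate 2 the lowest, 1.49-fold apart. In aging SNL its log2 fold change was 0.18 ± 0.21 (95% interval -0.34 to 0.69, edgeR adjusted p = 0.753), and it was -0.14 without replicate 1 and -0.09 in TPM. Without replicate 2 it was 0.44 ± 0.11.

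Per transcript length, the 10 genes ordered by mean TPM over 6 libraries as Cdkn1a at 194, Glb1 at 87.5, Cdkn2b at 76, Trp53 at 66.1, Cdkn2c at 61.9, Cdkn1b at 58, Mdm2 at 54.7, Cdkn2a at 9.81, Gdf15 at 7.46 and Lmnb1 at 7.16. Neighbours in this order from Glb1 to Mdm2 overlapped in range over libraries, as did the last 3, and no value of Cdkn1a, at 126 to 332 TPM, was within the range of another member. The effective length of Cdkn2c varied over libraries from 1071 to 1258 bases, which enters its TPM but not its CPM.

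Across all tested genes, 20.9% had both aging SNL libraries above both controls and 21.1% had both below. Of the 10 members 2 were above (Mdm2 and Cdkn1a) and 5 below (Trp53, Cdkn1b, Cdkn2a, Cdkn2c and Lmnb1). With spesolimab against aging SNL, 2 members were above (Cdkn1b and Cdkn2c) and 3 below (Mdm2, Cdkn1a and Cdkn2b), against 13.5% and 13.4% of all genes. Cdkn2c was above there by a fold of only 1.01. With spesolimab against control, 0 were above and 5 below (Trp53, Cdkn2a, Cdkn2b, Cdkn2c and Lmnb1), against 23.8% and 24.6%. Of the members 4 were below both controls in all 4 libraries of the aging SNL condition, where 13.3% of all genes were. An unadjusted p under 0.05 was found for 4 members in aging SNL, 1 in spesolimab against aging SNL and 2 in spesolimab against control, against 12.6%, 2.93% and 6.17% of all genes. The 2 comparisons against control share the control libraries, and the first 2 comparisons share the aging SNL libraries. With 2 libraries a group no exact permutation test could go below p = 0.333.

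Lists of genes around the members were described by their counts and medians. p53 target genes, 32 tested, had 24 above 0 and 8 below in aging SNL against control, with a median log2 fold change of 0.26 against 0.01 over all genes, and 0 called. On the TPM scale 17 were above and 15 below, with a median of 0.02 against -0.225. Their mean log2 level against control was 0.61 in aging SNL replicate 1 and -0.03 in replicate 2. Replicate 1 was the highest of the 6 libraries for 23 of 32, or 71.9%, against 32.4% of all genes. Chondrocyte markers stood at -1.94 and 0.67 in the same libraries. Without replicate 1 the median was -0.02 with 0 called, and without replicate 2 it was 0.46 with 15 called higher, in a fit that called 13.4% of all genes higher. Under spesolimab against aging SNL the median was -0.40, and -0.05 without replicate 1.

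Ddit4, an inhibitor of mTORC1 signalling and a p53 target, was above both controls by like amounts in both aging SNL libraries, with 28.9 and 36.6 CPM in the controls, 51.3 and 53.5 CPM in the aging SNL libraries, and 29.7 and 33 CPM with spesolimab. Its log2 differences were 0.68 ± 0.14 from control (edgeR adjusted p = 0.199) and -0.74 ± 0.14 for spesolimab against aging SNL (adjusted p = 0.956). Tigar, which lowers glycolytic flux, stood at 9.54 and 9.7 CPM in the controls, 12.1 and 12.2 CPM in the aging SNL libraries, and 8.41 and 9.59 CPM in those given spesolimab. Ercc5, a DNA repair endonuclease, was instead highest in replicate 1, at 59.3 CPM against 27.3 to 34.5 CPM in the other 5. Hipk2, a kinase that phosphorylates p53, stood at 184 and 168 CPM in the controls, 495 and 252 CPM in the aging SNL libraries, and 209 and 246 CPM in those given spesolimab. The p53 regulators and kinases as a list, 19 tested, had 8 above and 11 below 0, and 1 and 18 on the TPM scale. Their TPM median was -0.357, where all genes had a median of -0.225. Mdm4, the Mdm2 relative, was at 162 to 204 CPM throughout.

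**Figure D3:**
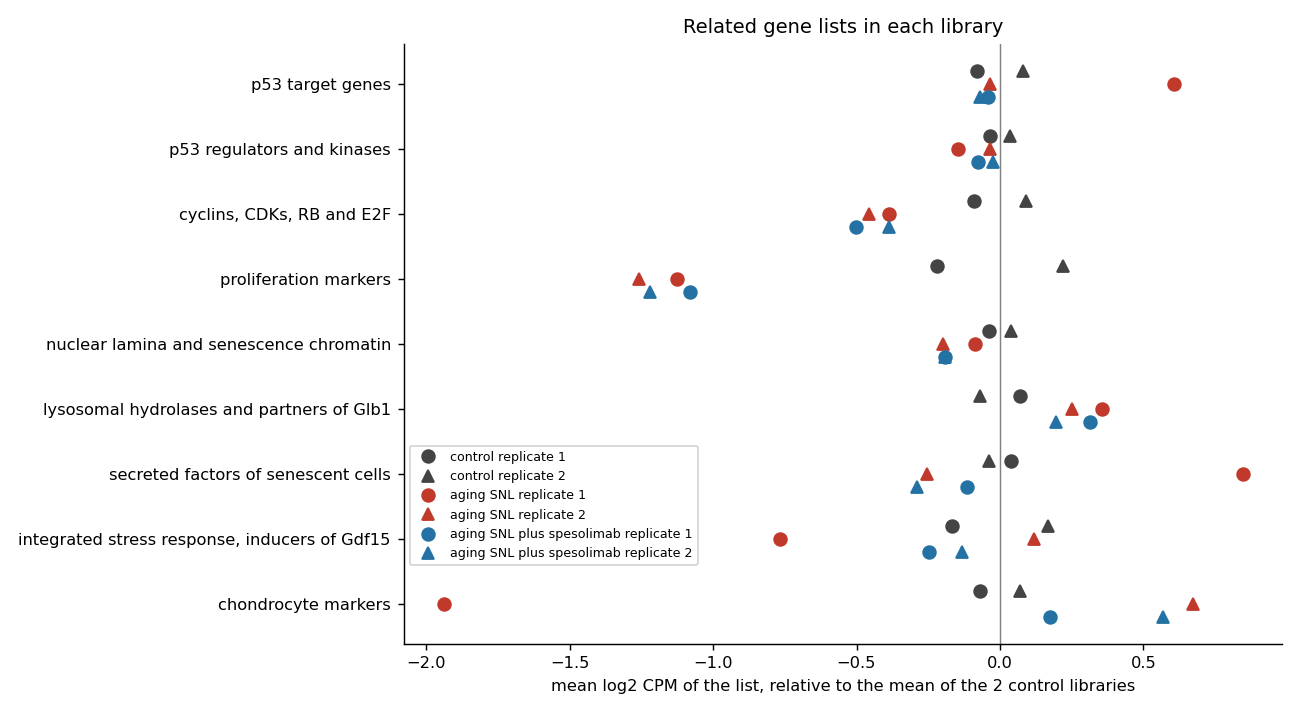
Mean log2 CPM of each gene list relative to the mean of the 2 control libraries, 1 point per library (circle replicate 1, triangle replicate 2). Proliferation markers and cyclins lie below control in the 4 aging SNL libraries with or without spesolimab, while p53 targets and secreted factors lie above control in aging SNL replicate 1 only, at 0.61 and 0.85, and chondrocyte markers lie at -1.94 there.

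Genes of cell division had lower means than control in all 4 libraries of the aging SNL condition. The 20 proliferation markers all had log2 fold changes below 0 in aging SNL, with a median of -1.14 and 0 called in 6 libraries. Without replicate 1 edgeR called 11 lower, against 1.61% of all genes, and without replicate 2 it called 16 lower, against 12.3%. Their mean was -1.12 and -1.26 in the aging SNL libraries and -1.08 and -1.22 in those given spesolimab. Of the 20, 19 lay below both controls in all 4 libraries, where 13.3% of all genes did. Spesolimab against control had a median of -1.32. In the list of cyclins, CDKs, RB and E2F, 17 of 26 were below 0, with a median of -0.26. Below both controls in all 4 were 12, or 46.2%, against 13.3% of all genes. On the TPM scale 24 of 25 were below 0, with a median of -0.412 where all genes had a median of -0.225. In such bulk libraries, fewer dividing cells and less RNA per cell cannot be told apart.

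Ccna2, a cyclin of S phase and mitosis, stood at 25.3 and 35.9 CPM in the controls, 9.25 and 11.4 CPM in the aging SNL libraries, and 11.3 and 9.42 CPM in those given spesolimab. Its log2 difference from control in aging SNL was -1.56 ± 0.23 in 6 libraries (edgeR adjusted p = 0.155). When aging SNL replicate 1 was left out it was -1.42 ± 0.24. Ccnb1, the mitotic cyclin B1, fell by 1.15 ± 0.22 and Cks1b, a CDK subunit, by 0.67 ± 0.13 without replicate 1. In 6 libraries Cks1b was at -0.62 ± 0.115 (edgeR adjusted p = 0.179), and 0 genes of the list were called. Ccnd2, a D-type cyclin that activates CDK4 and CDK6, had 477 and 499 CPM in the controls against 304 and 356 CPM in the aging SNL libraries, and 367 CPM in each spesolimab library. Cdk4, the target of Ink4 proteins, had 147 and 159 CPM in the controls, 86.6 and 135 CPM in the aging SNL libraries, and 126 CPM in both spesolimab libraries. Cdk6 was between 23.2 and 31.7 CPM in all, and Rb1 was at 16.2 to 19.4 CPM in 5 libraries but at 27.3 CPM in aging SNL replicate 1.

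Of the other CDK inhibitors, Cdkn1c, which encodes p57, stood at 508 and 421 CPM in the controls, 92.5 and 449 CPM in the aging SNL libraries, and 568 and 514 CPM in those given spesolimab. It was low in aging SNL replicate 1 alone, as chondrocyte markers were. Its log2 fold change was -0.78 ± 0.68 in 6 libraries, -0.05 ± 0.14 without replicate 1, and -2.33 ± 0.16 without replicate 2. Cdkn2d, which encodes p19Ink4d, was at 12.8 to 17.9 CPM in 5 libraries and 23.7 CPM in replicate 1.

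Of regulators of the Ink4a/Arf locus, Ets2, a transcription factor that activates the p16 promoter in human cells, stood at 99.7 and 100 CPM in the controls, 170 and 165 CPM in the aging SNL libraries, and 122 and 134 CPM in those given spesolimab. Without aging SNL replicate 1 it rose by 0.73 ± 0.09 (edgeR adjusted p = 0.0188). Id3, an inhibitor of basic helix-loop-helix factors, stood at 121 and 110 CPM in the controls, 70.4 and 68.9 CPM in the aging SNL libraries, and 105 and 97.9 CPM in those given spesolimab. Its difference in aging SNL was -0.73 ± 0.095 in 6 libraries (edgeR adjusted p = 0.155) and -0.74 ± 0.10 without replicate 1. Cbx2, a Polycomb repressor subunit, had 8.92 and 8.58 CPM in the controls and 5.34 and 5.9 CPM in the aging SNL libraries. Of the 19 tested regulators 8 were above and 11 below 0 in aging SNL, and on the TPM scale 3 were above and 16 below. Their TPM median was -0.335, against -0.225 over all genes.

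**Figure D4:**
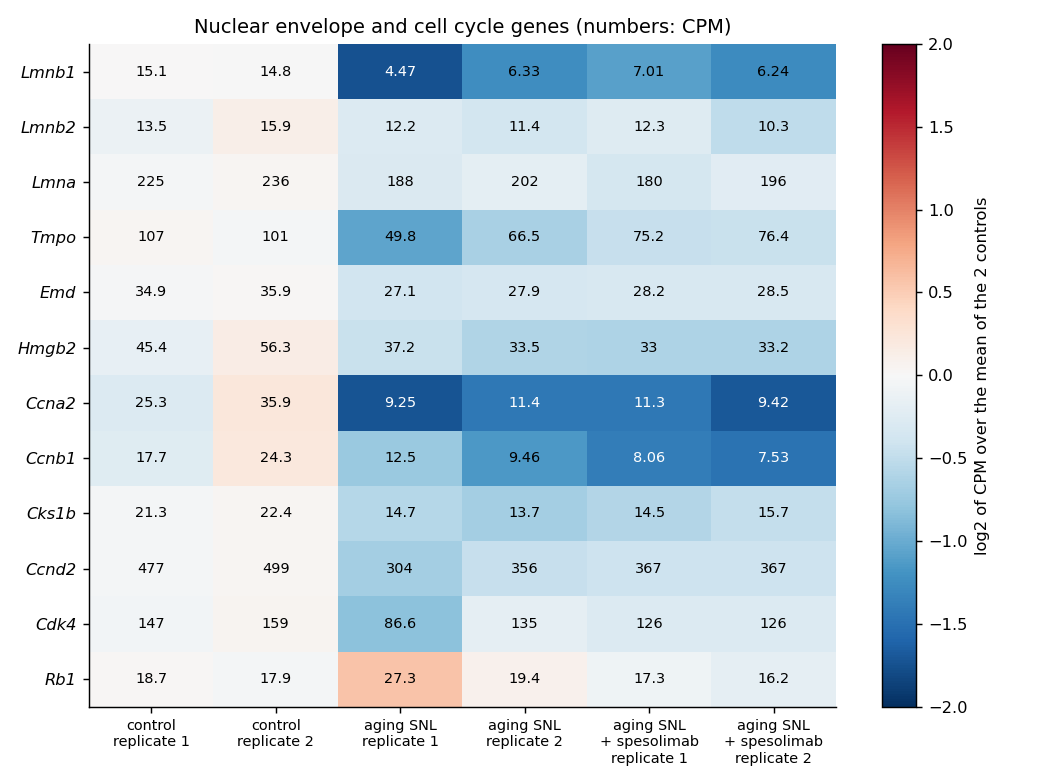
Lmnb1 beside other nuclear envelope genes and cell cycle genes, 1 column per library. Colour is the log2 of CPM over the mean of the 2 controls and numbers are CPM, and Lmnb1 is at 4.47 to 7.01 CPM in the 4 libraries on the right against 14.8 and 15.1 CPM in the controls.

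Tmpo, Lmnb2 and Lmna, other genes of the nuclear envelope, were below both controls in all 4 libraries of the aging SNL condition by smaller amounts than Lmnb1. Tmpo, which encodes lamina-associated polypeptide 2, stood at 107 and 101 CPM in the controls, 49.8 and 66.5 CPM in the aging SNL libraries, and 75.2 and 76.4 CPM in those given spesolimab. It fell by 0.64 ± 0.09 in aging SNL without replicate 1 (edgeR adjusted p = 0.0205), and by 0.46 ± 0.07 with spesolimab against control in that fit (adjusted p = 0.0278). Lmnb2, the gene of the other B-type lamin, stood at 13.5 and 15.9 CPM in the controls, 12.2 and 11.4 CPM in the aging SNL libraries, and 12.3 and 10.3 CPM in those given spesolimab. Lmna, which encodes lamins A and C, had 225 and 236 CPM in the controls and 180 to 202 CPM in the other 4. Hmgb2, a chromatin protein of dividing cells, had 45.4 and 56.3 CPM in the controls and 33 to 37.2 CPM in the other 4. Of 19 listed lamina and chromatin genes 15 were below 0 in aging SNL, with a median of -0.24. Below both controls in all 4 libraries were 11, or 57.9%, against 13.3% of all genes. On the TPM scale 17 were below 0, with a median of -0.465 against -0.225 over all genes. Hmga1, a chromatin protein gene of the list, stood at 47.8 and 42.7 CPM in the controls, 233 and 44 CPM in the aging SNL libraries, and 49.9 and 50.3 CPM in those given spesolimab. It was high in aging SNL replicate 1 alone. Its log2 difference from control was 1.62 ± 0.72 (edgeR adjusted p = 0.43) in 6 libraries, -0.04 ± 0.10 without that library and 2.37 ± 0.09 without replicate 2. Without replicate 2, 3 genes of the list were above 0 and 16 below, with a median of -0.278 against -0.011 over all genes.

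Lysosomal hydrolases and partners of Glb1 were above 0 in 22 of 23 cases in aging SNL, with a median of 0.31 against 0.01 over all genes. Above both controls in all 4 libraries of the aging SNL condition were 13, or 56.5%, against 12.7% of all genes. With spesolimab against control 20 were above 0 and 3 below, with a median of 0.24, and in 6 libraries 0 were called in either comparison. On the TPM scale the split was 15 to 8 and the median 0.07, where all genes had a median of -0.225. Ctsd, the protease cathepsin D, stood at 1240 and 1160 CPM in the controls, 1860 and 2300 CPM in the aging SNL libraries, and 2070 and 2090 CPM in those given spesolimab. Its log2 difference from control in aging SNL was 0.79 ± 0.17 in 6 libraries (edgeR adjusted p = 0.211) and 0.94 ± 0.12 without replicate 1. Hexa, a hexosaminidase, was at 0.58 ± 0.105 in 6 libraries (adjusted p = 0.174) and 0.53 ± 0.10 without replicate 1. Ctsa, the protective protein that binds the galactosidase, stood at 274 and 237 CPM in the controls, 394 and 336 CPM in the aging SNL libraries, and 344 and 329 CPM in those given spesolimab. Glb1 itself passed neither in the 6 libraries nor without replicate 1.

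Secreted factors of senescent cells, 31 of 37 tested, stood at a mean of 0.85 in aging SNL replicate 1 and -0.25 in replicate 2, with spesolimab at -0.12 and -0.29. Their median log2 fold change was 0.29 in 6 libraries and -0.29 without replicate 1. On the TPM scale 13 were above and 17 below 0, against 22 and 9 in CPM. The TPM median was -0.067, where all genes had a median of -0.225. Plau, the urokinase protease, stood at 48.1 and 46.6 CPM in the controls, 20.2 and 17.9 CPM in the aging SNL libraries, and 38.8 and 31.8 CPM in those given spesolimab. Its log2 difference from control in aging SNL was -1.31 ± 0.135 in 6 libraries (edgeR adjusted p = 0.108), and it was also lower without replicate 1. Igfbp7, a senescence-linked binding protein, had 289 and 238 CPM in the controls and 381 to 484 CPM in the other 4. Of the stress response genes that can induce Gdf15, 20 tested, the mean was -0.77 in aging SNL replicate 1 and 0.12 in replicate 2. The median was -0.21 in 6 libraries, with 13 below 0 in CPM and 18 in TPM. In TPM the median was -0.533, against -0.225 over all genes. Of 15 tested genes of the BCL-2 family, 8 were above and 7 below 0, against 2 and 13 in TPM. Their TPM median was -0.199, near the -0.225 of all genes. Bcl2l1, which encodes the survival protein BCL-xL, stood at 31.4 and 32.5 CPM in the controls, 88.7 and 39.2 CPM in the aging SNL libraries, and 37.7 and 46.1 CPM in those given spesolimab. Bcl2, another survival gene, had 14 and 13.8 CPM in the controls, 10.1 and 8.49 CPM in the aging SNL libraries, and 12.4 and 10.5 CPM with spesolimab. All 4 were below both controls, and the log2 difference in aging SNL was -0.58 ± 0.16 (edgeR adjusted p = 0.29).

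By the root mean square difference of centred log2 CPM over 6 libraries, the gene whose pattern was most like Lmnb1 of 10603 searched was Col8a2, a gene of collagen VIII, at 0.116. It stood at 73.5 and 72.2 CPM in the controls, 18.1 and 28.9 CPM in the aging SNL libraries, and 29 and 30.1 CPM in those given spesolimab. Srsf7 was most like Trp53, at 0.024, Csrnp1 most like Cdkn1a, at 0.112, Stx3 most like Mdm2, at 0.026, and Fzr1 most like Cdkn2c, at 0.033. Lix1l was most like Cdkn1b, at 0.026, Rangrf most like Cdkn2a, at 0.107, Hccs most like Cdkn2b, at 0.079, Col10a1 most like Gdf15, at 0.137, and Zbtb7a most like Glb1, at 0.031. Over 6 libraries many genes can match by this measure, and it is given as a description.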

How the data were processed

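RNA-seq values of 6 libraries came from the authors' gene table. Per the file headers the authors deposited expected counts, which carry no scaling and of which 12.3% were fractional. TPM was deposited too, scaled by the authors for length and depth, and so was FPKM, from which only effective lengths were derived. The submitters' processing notes name RSEM 1.3.1, Bowtie2 2.3.4.3, the build GRCm39 and DESeq2 1.4.5, with no roles. Neither annotation nor strandedness is given in the sources used here, and without them overlapping or antisense genes cannot be told apart. The 9 columns of group averages were not used. Of 22173 genes, 17189 had values.

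Expected counts were rounded and tested with edgeR 4.0.16 (R 4.3.3) by quasi-likelihood, with TMM scaling and filterByExpr (minimum count 10, minimum total 15), leaving 13399 genes. The fit had 1 mean per group, 3 residual degrees of freedom and Benjamini-Hochberg adjustment over all genes with a threshold of 0.05. Standard errors were the size of the log2 fold change over the square root of F. Alternatives were DESeq2 1.42.0, other size factors, no filter, limma 3.58.1 on log2(TPM + 1) and log2(TPM + 0.1), a replicate block, only the 4 libraries compared, and leaving out each library. The procedure was run on simulated data in which all libraries shared a common spread, so it does not cover a library that stands apart. Differences between the libraries of a group exceeded counting noise (chi-square per degree of freedom 13.57, 237.6 and 17.64), so all 6 were kept as separate libraries. Repeat preparations of 1 sample may also exceed it, and it does not tell whether cultures were separate.

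Members and lists were chosen with earlier results of these data known. Other genes were named by rule: the members, their fixed partners, up to 3 genes per list with the lowest p in aging SNL against control and up to 2 in spesolimab against aging SNL at 5 CPM or more, and the 2 genes most like each member.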

Additional observations from a re-analysis of the deposited data

How the results depend on the processing

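Of 390 values of single members under the alternatives, 354 kept their direction and side of the threshold, 15 passed it and 21 took the other sign. In aging SNL against control DESeq2 called 445 genes and 1 member, Lmnb1 (adjusted p = 2.19e-05). It called 3 genes in spesolimab against aging SNL and 160 genes with 1 member in spesolimab against control. A fit of only the 4 libraries compared called 382 genes and 1 member in spesolimab against control. Leaving out 1 library gave 0 to 3525 genes and 0 to 5 members, 0 to 2810 genes and 0 to 4 members, and 0 to 385 genes and 0 to 1 member in the 3 comparisons. In aging SNL against control 467 genes were called without aging SNL replicate 1 and 3525 without replicate 2.

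Signs that changed in aging SNL against control were those of Cdkn2b, at -0.25 and -0.26 on TPM with pseudocounts of 1 and 0.1 and -0.31 to 0.27 with 1 library left out, of Glb1, at -0.092 and -0.093 on TPM and -0.14 to 0.44, and of Gdf15, at -0.45 to 0.065. In spesolimab against aging SNL they were Trp53 (-0.068 to 0.43), Cdkn2a (-0.44 to 0.41), Gdf15 (-0.75 to 0.13) and Glb1 (0.095 and 0.096 on TPM and -0.34 to 0.23). In spesolimab against control they were Mdm2 (-0.010 on TPM with either pseudocount), Cdkn1a (-0.012 to 0.45) and Cdkn1b (-0.085 to 0.082). On TPM with a pseudocount of 1 the median over all genes was -0.225, 0.143 and -0.084 in the 3 comparisons. The cause of the changed signs was not tested.

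The replicate block called 0 genes in each comparison, gave Lmnb1 -1.48 ± 0.22 in aging SNL against control (edgeR adjusted p = 0.192), and gave Cdkn2b -0.005. With the block, members whose 95% interval excluded 0 went from 4 to 5 in aging SNL against control, adding Trp53 at -0.44 (-0.86 to -0.02). Of all genes, 12.6% had an unadjusted edgeR p under 0.05 there without the block and 13.4% with it. In spesolimab against aging SNL such members went from 1 to 0, losing Mdm2 at -0.28 (-0.595 to 0.035), against 2.93% and 2.95% of all genes. Deviations of same-numbered libraries correlated at 0.246, 0.419 and 0.286, a hint from the data and not the design. The labels tie the numbers to no animal, litter or day, and 2 numbers are too few to judge a pairing from correlations, so the fit without the block was kept. Depth limits Cdkn2a and Gdf15, at 34 to 108 counts a library.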
